A study of Xenopus laevis with 12 samples.

Results

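Messenger RNAs of membrane traffic were examined in RNA recovered with 3 antibodies from frog oocytes. The 54 genes, of 51061 in the count files, carry names of secretory, endosomal and vesicle traffic proteins (signal peptidase, coat, tether, SNARE, adaptor, sorting nexin, ESCRT and lysosomal families). They were taken by name pattern from the 3968 genes that the authors listed as enriched, in a Staufen or an hnRNPab table. The genes represent 45 symbols, since X. laevis carries .L and .S copies (homeologs) of many genes. All 54 passed the filter on low counts. Because the tables were made from this series, every member had already been selected as enriched over the authors' control, and the directions and p-values below are not independent evidence beside that selection.

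The libraries were made from Xenopus laevis oocytes of stages II and III, pooled. Lysate was fractionated by size exclusion, fractions rich in L-bodies (the large RNA-protein condensates of the oocyte's vegetal cytoplasm) were pooled, and RNA was immunoprecipitated from the pool. The Staufen group (4 libraries) was precipitated with an antibody to Staufen, a double-stranded RNA-binding protein of RNA transport. The hnRNPab group (4 libraries) was precipitated with an antibody to hnRNPab, a nuclear and cytoplasmic RNA-binding protein of the same transport pathway. The IgG group (4 libraries) was the control with a non-specific immunoglobulin. These identities are those of the labels, which the authors' deposited tables did not match, as described below. The labels give no treatment, genotype or age, and do not state whether each replicate had its own frogs, so the p-values here rest on library-to-library spread that may be technical only.

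Secretory proteins enter the endoplasmic reticulum (ER), where signal peptidase removes their signal sequence, and move to the Golgi and back in COPII and COPI coated vesicles. Tethers such as TRAPP, the exocyst and golgins catch a vesicle, SNARE proteins with their Munc18 partners fuse it, and clathrin adaptors, sorting nexins, retromer and ESCRT complexes sort cargo at the plasma membrane and endosomes towards recycling or the lysosome. Oocytes use this machinery to take up yolk protein and to fill their cortical granules. The roles given below are those known from mammals and yeast.

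The 12 libraries held 14147584 to 22103431 counts over genes. Libraries with the same replicate number deviated together from their group means (r 0.783 to 0.875 across genes, which are not independent replicates, against at most -0.0593 with another number). The counts over all members are therefore given also with the replicate number as a block. For single genes the blocked result is given only in part, so a value printed without it may have another call there. The library labelled hnRNPab 1 stood apart on the first principal component (-98.6, against -43.7 to -28.3 for the other libraries labelled hnRNPab). Leaving it out gave 20 members higher and 25 lower in hnRNPab-labelled over IgG-labelled libraries, against 21 and 26 with it. Of 12 oocyte marker symbols 5 were named in the tables, among them gdf9.L, an oocyte growth factor, at 137 to 154, 271 to 374 and 102.5 to 129 CPM (counts of the gene relative to the TMM-scaled library size) in Staufen-labelled, hnRNPab-labelled and IgG-labelled libraries. The gene mos.L was highest in IgG-labelled libraries, at 454 to 598, 356 to 441 and 695 to 820 CPM in the same order of groups. The oocyte genes bicc1.S, vegt.S and wnt11b.L were highest in hnRNPab-labelled libraries, as gdf9.L was. For bicc1.L the Staufen-labelled and hnRNPab-labelled ranges overlapped. Of these oocyte genes mos.L was listed for hnRNPab alone and the others for Staufen alone. Their directions in hnRNPab-labelled over IgG-labelled libraries go with that listing. No symbol of 10 follicle and theca cell or of 6 stromal and endothelial markers was named in the tables. Markers were looked for only among the listed genes, so this does not tell whether RNA of those cells was in the libraries. Of 5 blood markers slc4a1.L, the anion exchanger of red cells, was at 27.0 to 40.5, 104 to 163 and 25.0 to 35.7 CPM in the same order of groups. This gene was listed for Staufen alone, and all 1978 tested genes so listed lay above 0 in hnRNPab-labelled over IgG-labelled libraries. Its direction therefore goes with the listing, and a part of blood cells in the levels of the members was not tested. The marker genes that have no name here were not analysed.

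The labels and the authors' tables did not match, for the members as for the tables as a whole, and all directions are given for libraries as labelled. Of the 25 members in the authors' deposited Staufen table, 13 had a higher fitted level in Staufen-labelled than in IgG-labelled libraries, and 24 had one in hnRNPab-labelled over IgG-labelled libraries. Of all 2426 tested genes of that table these numbers were 1331 and 2208. Of the 31 members in the authors' deposited hnRNPab table, 1 had a higher fitted level in hnRNPab-labelled than in IgG-labelled libraries, as had 230 of all 1930 tested genes of that table. All 6 differences between labelled groups were set beside the authors' values. To the authors' deposited Staufen table the closest was hnRNPab-labelled over IgG-labelled (log2 values apart by a median of 0.267 over 25 members, and by 1.05 at most). Nearly as close was hnRNPab-labelled over Staufen-labelled (a median of 0.355, and 1.16 at most). Over all 2426 tested genes of that table the medians of these differences were 0.468 and 0.487, and 2208 and 2251 genes were above 0. To the authors' deposited hnRNPab table the closest was IgG-labelled over hnRNPab-labelled (a median of 0.454 over 31 members, and 1.72 at most). Next were Staufen-labelled over hnRNPab-labelled (a median of 0.819) and IgG-labelled over Staufen-labelled (0.899). Over all 1930 tested genes of that table the closest difference had a median of 0.518, and 1700 genes were above 0 in it. For the 2 members in both tables a control can be subtracted if the tables share it. The sources used here do not state that they do. The authors' deposited Staufen and hnRNPab values were 1.44 and 0.882 for vamp4.L and 0.87 and 1.03 for stxbp2.L. Each was larger than any labelled difference of that gene, in either direction. For vamp4.L the authors' deposited tables gave 0.557 for Staufen minus hnRNPab, beside 0.54 in hnRNPab-labelled over IgG-labelled libraries and -0.28 in Staufen-labelled over hnRNPab-labelled libraries. For stxbp2.L the authors' deposited tables gave -0.162, beside -0.18 and 0.081 for the same differences.

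More of the members were in the hnRNPab table than in the Staufen table. The authors' deposited hnRNPab table alone held 29 of the 54 (53.7%, against 38.1% of all 3968 listed genes). The authors' deposited Staufen table alone held 23 (42.6%, against 50.5% of all listed genes), and 2 were shared. Genes of clathrin and its adaptors (1 listed by the authors' deposited tables for Staufen alone, 6 for hnRNPab alone) and of endosomal sorting (6 and 12) had more members in the hnRNPab table. For SNAREs and their partners these counts were 9 and 6, with 2 in both, and for COPI and ER-Golgi cargo receptors 3 and 2. No test was made of these counts. Copies .L and .S were counted as separate genes, although 8 of 9 pairs were in the same table. Of 44 related traffic genes outside the name pattern, 47.7% were in the Staufen table alone and 38.6% in the hnRNPab table alone. In the reference gene table of assembly Xenopus_laevis_v10.1, 396 protein-coding genes fit the name pattern and 12.1% of them were in the tables, near the 11.1% of all genes with a symbol.

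**Figure D1:**
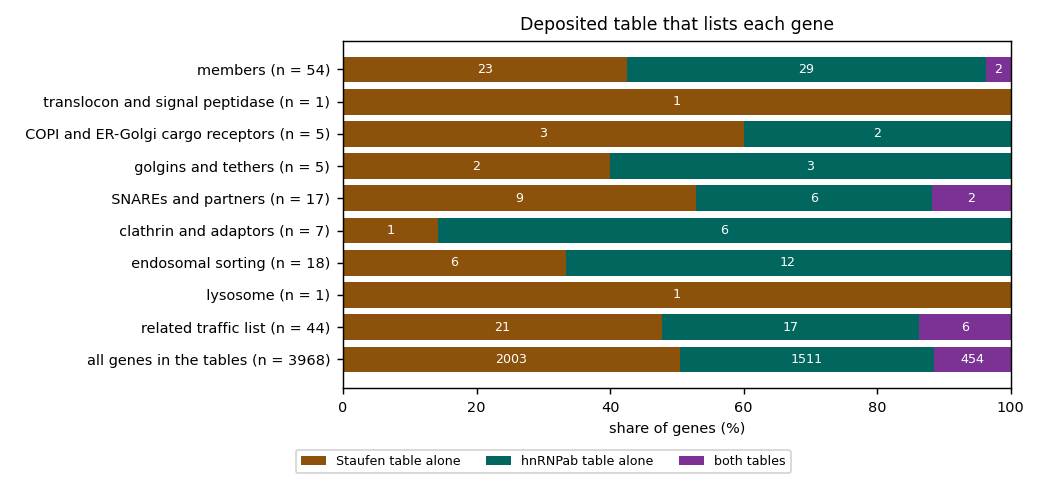
Share of genes (%) by the authors' deposited table that lists them (brown, Staufen only; green, hnRNPab only; purple, both), for the 54 members, their 7 role groups, 44 related traffic genes and all 3968 listed genes. The number in each bar is the count of genes; 6 of 7 clathrin and adaptor genes and 12 of 18 endosomal sorting genes lie in the hnRNPab table alone.

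Between hnRNPab-labelled and IgG-labelled libraries, 21 members were higher and 26 lower with an adjusted p below 0.05 (edgeR's quasi-likelihood test, Benjamini-Hochberg adjustment over 20803 genes). Of all tested genes 16.3% were higher and 17.4% lower. The fitted difference was above 0 for all 23 members listed for Staufen alone and below 0 for all 29 listed for hnRNPab alone. It was likewise above 0 for all 1978 tested genes listed for Staufen alone and below 0 for all 1482 listed for hnRNPab alone. The signs therefore go with the listing and are no result about the members. Of the 23, 20 passed as higher, where 83% of all such genes did. Of the 29, 26 passed as lower, where 82.9% of all such genes did. With the block, 24 members passed as higher and 29 as lower, with 31.3% and 33.3% of all genes. The member without a call in that fit was syt4.L, at a mean of 1.05 CPM over the 12 libraries. The CPM of the 4 hnRNPab-labelled and the 4 IgG-labelled libraries did not overlap for 44 of 54 members, where 31.2% of all genes did not. All members were listed genes, and the share over all listed genes was not computed. The excess over all genes is therefore no result about the members. These values set the relative level in RNA recovered from pooled fractions of lysate. They give neither the number of oocytes with an RNA nor its amount per oocyte.

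Between Staufen-labelled and IgG-labelled libraries, 1 member was higher (4.45% of all genes) and 8 lower (3.33% of all genes), with 45 not passing. All 8 were in the hnRNPab table alone, where 21.1% of all such genes were lower. Under the replicate block, 7 passed as higher and 23 as lower, with 19% and 20.5% of all genes. Of those 23, 22 were in the hnRNPab table alone, where 69.2% of all such genes were lower. The CPM did not overlap for 11 of 54 members (12.3% of all genes, with the share over listed genes not computed). The 54 members had a median log2 fold change of -0.125, against -0.0099 for all genes. That median was 0.0711 over all tested genes listed for Staufen alone and -0.365 over all listed for hnRNPab alone. The value for the members therefore depends on how many were listed in each table.

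Between Staufen-labelled and hnRNPab-labelled libraries, 15 members were higher (16.5% of all genes) and 19 lower (16.3% of all genes). Of the 23 members listed for Staufen alone 18 were lower, where 80.1% of all such genes were, and of the 29 listed for hnRNPab alone 15 were higher, where 55.6% were. Under the block, 21 passed as higher and 25 as lower, with 33.1% and 31.5% of all genes. The CPM did not overlap for 33 of 54 members (31% of all genes, with the share over listed genes not computed). The 3 comparisons share libraries, so their values for a gene are given side by side and not set against each other.

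**Figure D2:**
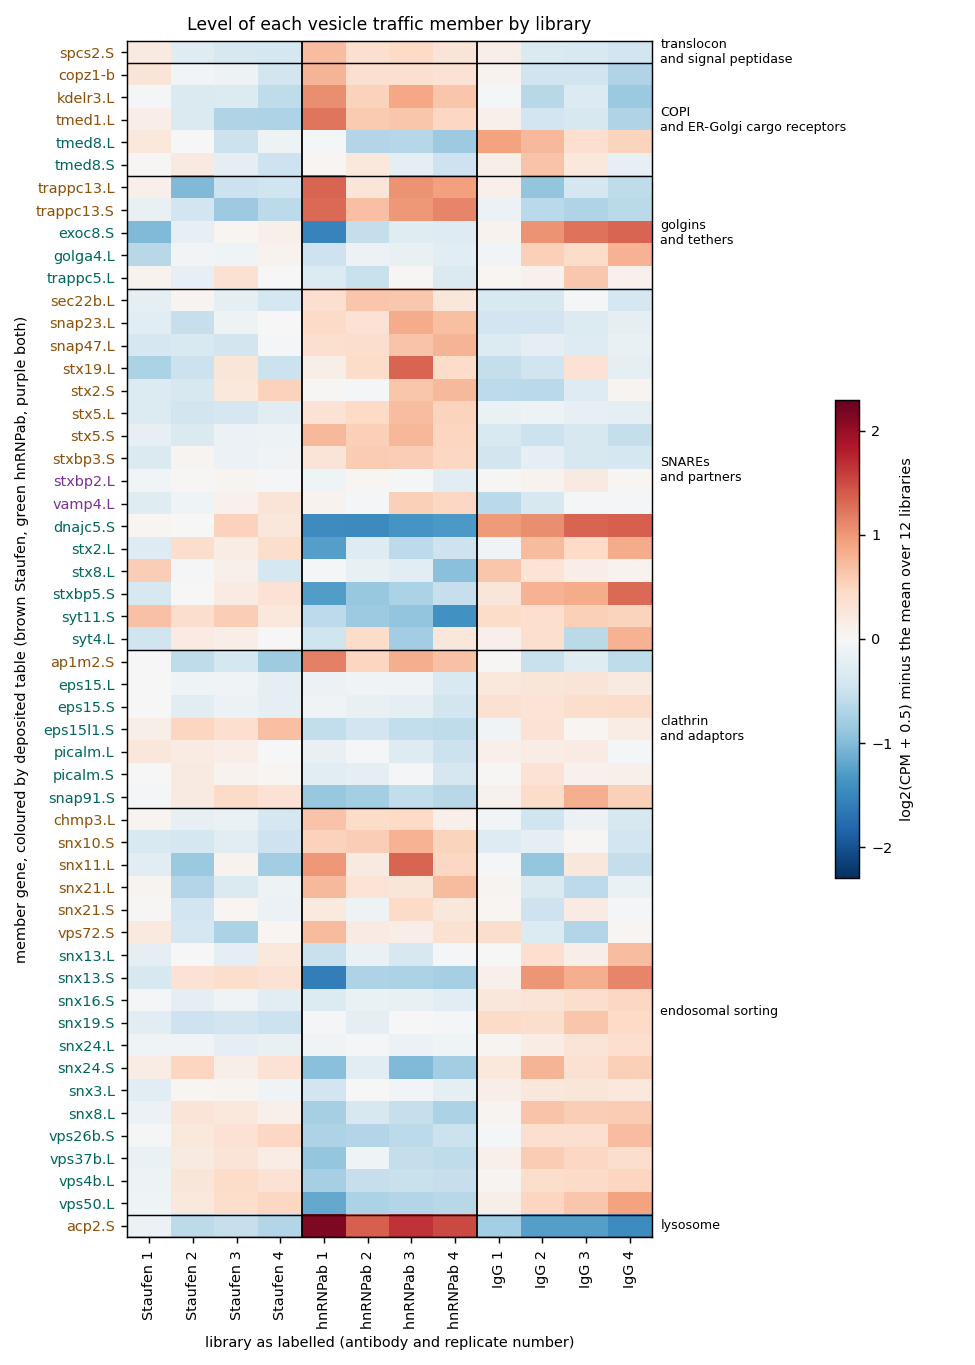
Level of 53 members (rows, by role group) in the 12 libraries (columns, as labelled), as log2(CPM + 0.5) minus the gene's mean over the libraries; red is above and blue below that mean. Names are coloured by the authors' deposited table that lists the gene (brown Staufen, green hnRNPab, purple both); brown names are reddest in the hnRNPab-labelled columns and most green names in the IgG-labelled columns.

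The signal peptidase subunit gene spcs2.S (gene43119) was at 79.8, 57.0, 53.1 and 52.2 CPM in Staufen-labelled libraries, 113, 88.9, 94.3 and 84.4 CPM in hnRNPab-labelled libraries and 75.3, 54.9, 54.2 and 50.7 CPM in IgG-labelled libraries, in the order of replicates 1 to 4. All 4 hnRNPab-labelled values lay above the other 8, and the gene rose over IgG-labelled libraries 1.62-fold (log2 0.69, SE 0.165, adjusted p = 0.00617, edgeR). Of COPI and ER-Golgi cargo receptor genes 3 rose and 1 fell in hnRNPab-labelled over IgG-labelled libraries. The 3 were listed for Staufen alone, where 83% of all genes so listed rose. The other was listed for hnRNPab alone, where 82.9% of all genes so listed fell. The KDEL receptor gene kdelr3.L (gene10261), whose product returns ER proteins from the Golgi, was at 22.4, 18.4, 18.5 and 15.3 CPM in Staufen-labelled libraries, 49.5, 33.7, 43.2 and 36.5 CPM in hnRNPab-labelled libraries and 22.5, 14.8, 18.6 and 12.6 CPM in IgG-labelled libraries. The hnRNPab-labelled libraries were above all others, and the gene rose 2.38-fold (log2 1.25, SE 0.191, adjusted p = 0.000299, edgeR). The p24 cargo receptor gene tmed1.L averaged 76.4 ± 19.6 CPM in hnRNPab-labelled and 35.7 ± 8.90 CPM in IgG-labelled libraries (SD, n = 4 each; 2.14-fold, edgeR adjusted p = 0.00349). The COPI coat subunit gene copz1-b rose 1.78-fold (adjusted p = 0.00527). In Staufen-labelled over hnRNPab-labelled libraries kdelr3.L (log2 -1.12), tmed1.L (-1.12) and spcs2.S (-0.65) fell, and copz1-b was at -0.53 (adjusted p = 0.0534; 9.26e-09 with the replicate block).

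The tmed8 genes, which encode a GOLD-domain relative of the p24 proteins, had their highest levels in IgG-labelled libraries. The .L copy was at 14.7, 12.5, 8.68 and 11.3 CPM in Staufen-labelled libraries, 12.1, 7.55, 7.71 and 6.69 CPM in hnRNPab-labelled libraries and 24.1, 21.2, 16.2 and 18 CPM in IgG-labelled libraries. It fell in hnRNPab-labelled over IgG-labelled libraries (log2 -1.23, SE 0.217, adjusted p = 0.000855, edgeR), and in Staufen-labelled over IgG-labelled libraries it was at log2 -0.75 (adjusted p = 0.0537; 1.58e-08 with the replicate block). The IgG-labelled values lay above the other 8. The .S copy was at log2 -0.32 in hnRNPab-labelled over IgG-labelled libraries (adjusted p = 0.285; 0.000227 with the replicate block).

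Of the tether genes 2 rose and 3 fell in hnRNPab-labelled over IgG-labelled libraries. The 2 were listed for Staufen alone, where 83% of all genes so listed rose. The 3 were listed for hnRNPab alone, where 82.9% of all genes so listed fell. These directions go with the listing. The TRAPP subunit gene trappc13.S (gene12329) was at 43.6, 36.2, 27.3 and 32.1 CPM in Staufen-labelled libraries, 122, 79.4, 98.1 and 108 CPM in hnRNPab-labelled libraries and 44.8, 31.9, 30.2 and 32.0 CPM in IgG-labelled libraries. The Staufen-labelled and IgG-labelled ranges overlapped and the hnRNPab-labelled range lay above both. It rose 2.94-fold over IgG-labelled libraries (log2 1.55, SE 0.181, adjusted p = 3.69e-05, edgeR) and fell in Staufen-labelled over hnRNPab-labelled libraries (log2 -1.55, SE 0.181, adjusted p = 3.95e-05, edgeR). Its homeolog trappc13.L rose 2.55-fold (adjusted p = 0.00305). Another TRAPP subunit gene, trappc5.L, listed for hnRNPab alone, fell in hnRNPab-labelled over IgG-labelled libraries (log2 -0.51, adjusted p = 0.0327). The exocyst subunit gene exoc8.S (gene16172), part of the complex that docks secretory vesicles at the plasma membrane, was at 31.1, 55.7, 66.0 and 69.5 CPM in Staufen-labelled libraries, 21.6, 43.4, 52.6 and 51.5 CPM in hnRNPab-labelled libraries and 67.2, 132, 152 and 163 CPM in IgG-labelled libraries. In each group replicate 1 was the lowest, and within each replicate number IgG was the highest. It fell in hnRNPab-labelled over IgG-labelled libraries (log2 -1.60, SE 0.342, adjusted p = 0.00306, edgeR) and in Staufen-labelled over IgG-labelled libraries (log2 -1.21, SE 0.338, adjusted p = 0.0497, edgeR). The second call did not survive the omission of any 1 library, hnRNPab 1 and IgG 1 excepted (adjusted p 0.0647 to 0.13). It also missed the threshold in a fit on the 2 groups alone (0.0586), and with the replicate block the adjusted p was 2.66e-18. The trans-Golgi golgin gene golga4.L fell in hnRNPab-labelled over IgG-labelled libraries (log2 -0.72, adjusted p = 0.011) and was at -0.62 in Staufen-labelled over IgG-labelled libraries (adjusted p = 0.0714; 4.15e-09 with the replicate block).

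**Figure D3:**
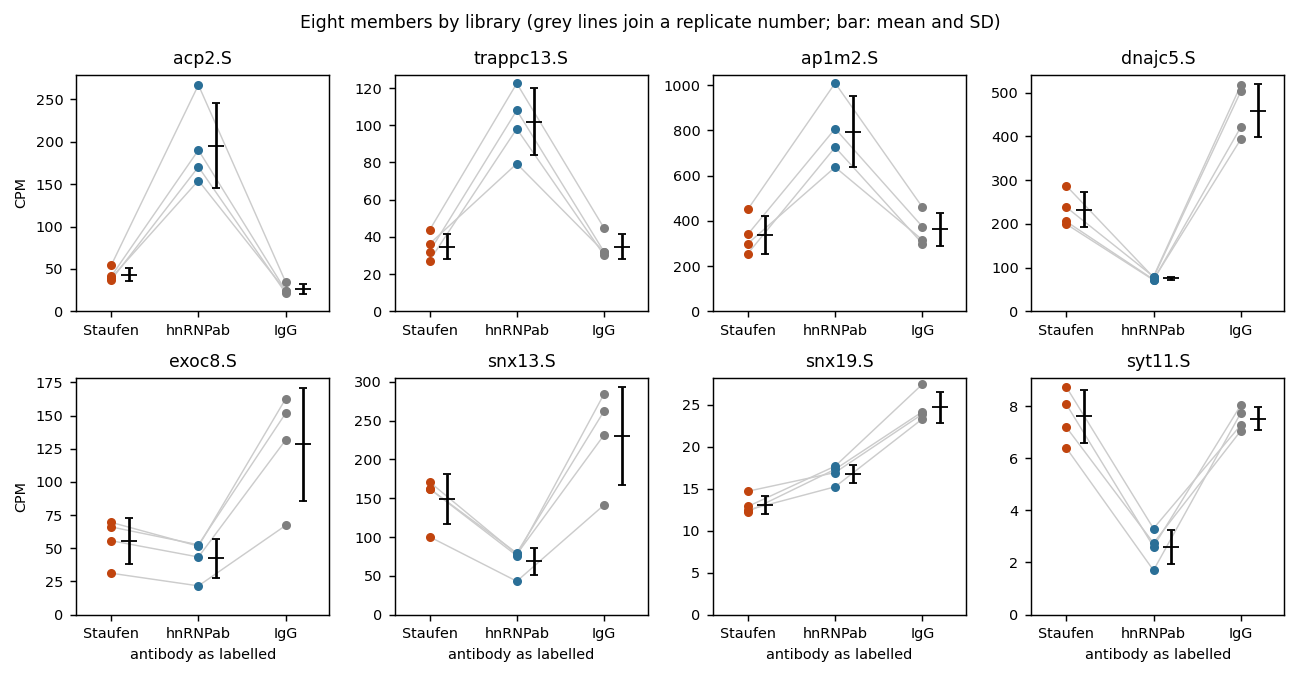
CPM in each library for 8 members chosen for display after their values were seen; the axis starts at 0, points are libraries as labelled, grey lines join libraries with the same replicate number, and black bars give the mean and SD of 4. For acp2.S, trappc13.S and ap1m2.S the hnRNPab-labelled libraries are highest; for dnajc5.S, exoc8.S, snx13.S and snx19.S the IgG-labelled mean is highest; for syt11.S the hnRNPab-labelled libraries are lowest.

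Among the 17 genes of SNAREs and their partners, 9 rose and 4 fell in hnRNPab-labelled over IgG-labelled libraries, and 10 and 6 with the replicate block. Without the block, those that fell were listed for hnRNPab alone, where 82.9% of all genes so listed fell. Those that rose were listed for Staufen alone, where 83% of all genes so listed rose, except vamp4.L of both tables. The largest difference was that of dnajc5.S (gene4962), which encodes cysteine string protein, a chaperone on secretory vesicles. It was at 206, 199.6, 287 and 238 CPM in Staufen-labelled libraries, 72.7, 71.6, 77.8 and 79.5 CPM in hnRNPab-labelled libraries and 394, 421, 503 and 517 CPM in IgG-labelled libraries. The 3 groups did not overlap, with IgG-labelled libraries highest and hnRNPab-labelled libraries lowest. The gene fell in hnRNPab-labelled over IgG-labelled libraries (log2 -2.60, SE 0.134, adjusted p = 9.06e-08, edgeR) and in Staufen-labelled over IgG-labelled libraries (log2 -0.98, SE 0.127, adjusted p = 0.000726, edgeR), and rose 3.09-fold in Staufen-labelled over hnRNPab-labelled libraries (log2 1.63, SE 0.130, adjusted p = 2.26e-06, edgeR). The tomosyn gene stxbp5.S, a negative regulator of SNARE assembly, averaged 41.3 ± 8.32, 22.0 ± 4.67 and 72.0 ± 20.8 CPM in Staufen-labelled, hnRNPab-labelled and IgG-labelled libraries (SD, n = 4 each). It fell in hnRNPab-labelled over IgG-labelled libraries (log2 -1.71, SE 0.230, adjusted p = 0.000112, edgeR). In Staufen-labelled over IgG-labelled libraries it was at log2 -0.80 with an adjusted p of 0.0499, lost on leaving out any library but hnRNPab 1 and IgG 1 (0.0571 to 0.136), without the filter and in a fit on the 2 groups alone (0.0556 to 0.0762), and 1.12e-12 with the replicate block.

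The synaptotagmin gene syt11.S (gene11968), of a family of vesicle membrane proteins, was lowest in hnRNPab-labelled libraries, while the Staufen-labelled and IgG-labelled ranges overlapped. It was at 8.74, 7.20, 8.08 and 6.40 CPM in Staufen-labelled libraries, 3.30, 2.75, 2.61 and 1.70 CPM in hnRNPab-labelled libraries and 7.27, 7.05, 8.04 and 7.74 CPM in IgG-labelled libraries. It rose 2.94-fold in Staufen-labelled over hnRNPab-labelled libraries (log2 1.55, SE 0.201, adjusted p = 8.46e-05, edgeR) and was at log2 0.016 in Staufen-labelled over IgG-labelled libraries (SE 0.193, adjusted p = 0.993). A second synaptotagmin gene, syt4.L, was at 0.569 to 1.18, 0.348 to 1.49 and 0.466 to 2.07 CPM in Staufen-labelled, hnRNPab-labelled and IgG-labelled libraries and passed in no comparison.

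Both homeologs of the Golgi syntaxin gene stx5 rose in hnRNPab-labelled over IgG-labelled libraries. The .S copy (gene10386) was at 73.7, 67.2, 77.2 and 77.8 CPM in Staufen-labelled libraries, 141, 123, 143 and 119 CPM in hnRNPab-labelled libraries and 66.2, 60.1, 64.9 and 57.6 CPM in IgG-labelled libraries (2.11-fold in hnRNPab-labelled over IgG-labelled libraries; log2 1.08, SE 0.0904, adjusted p = 2.84e-06, edgeR). The .L copy (gene38034) was at 37.7, 34.9, 35.6 and 39.6 CPM in Staufen-labelled libraries, 59.2, 64.6, 76.5 and 66.8 CPM in hnRNPab-labelled libraries and 41.9, 43.3, 41.0 and 40.6 CPM in IgG-labelled libraries (1.60-fold; log2 0.68, SE 0.0905, adjusted p = 0.000103, edgeR). In Staufen-labelled against IgG-labelled libraries the copies lay on opposite sides, the .S copy above all IgG-labelled values and the .L copy below them. Neither passed without the block (.S log2 0.25, adjusted p = 0.128; .L log2 -0.17, adjusted p = 0.349), and with the block the .S copy rose (adjusted p = 0.000627) and the .L copy fell (adjusted p = 0.0422, lost without Staufen 2, Staufen 3, IgG 1 or IgG 2).

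The plasma membrane syntaxin gene stx2 was split between the tables, with the .L copy in the authors' deposited hnRNPab table and the .S copy in the Staufen table. The .L copy (gene2574) was at 76.8, 126, 106 and 125 CPM in Staufen-labelled libraries, 39.0, 76.6, 61.6 and 67.6 CPM in hnRNPab-labelled libraries and 88.8, 157, 130.2 and 172 CPM in IgG-labelled libraries. The .S copy (gene31937) was at 21.6, 20.9, 32.4 and 39.6 CPM in Staufen-labelled libraries, 27.6, 26.3, 42.5 and 46.0 CPM in hnRNPab-labelled libraries and 17.8, 17.6, 22.0 and 28.3 CPM in IgG-labelled libraries. In hnRNPab-labelled over IgG-labelled libraries the .L copy fell (log2 -1.16, SE 0.244, adjusted p = 0.00278, edgeR) and the .S copy rose (log2 0.73, SE 0.257, adjusted p = 0.0444, edgeR). All tested genes listed for hnRNPab alone had a lower fitted level in this comparison, and all listed for Staufen alone a higher one. The opposite directions of the copies therefore go with the listing. The .S ranges overlapped, although the hnRNPab library was higher within each of the 4 replicate numbers, and its call was lost without Staufen 3, hnRNPab 3, hnRNPab 4, IgG 1, IgG 2 or IgG 3 (adjusted p 0.0527 to 0.132) but not with the replicate block (3.67e-11). In Staufen-labelled over hnRNPab-labelled libraries the .L copy rose (log2 0.82, adjusted p = 0.0204, lost without Staufen 2 or Staufen 4 at 0.0553 to 0.056) and the .S copy was at -0.31 (adjusted p = 0.405; 0.000135 with the block).

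The plasma membrane SNARE gene snap23.L rose 1.93-fold over IgG-labelled libraries, at 186 to 267 against 108 to 128 CPM (edgeR adjusted p = 0.000189), and fell in Staufen-labelled over hnRNPab-labelled libraries (log2 -0.82, adjusted p = 0.000592). Rises of 1.77-fold for snap47.L, a relative of snap23, 1.72-fold for sec22b.L, an ER-Golgi SNARE, 1.81-fold for stxbp3.S, a Munc18 protein, and 1.82-fold for stx19.L, a syntaxin, passed in the same comparison (edgeR adjusted p 5.93e-05 to 0.0476). The endosomal syntaxin gene stx8.L of the hnRNPab table was at log2 -0.66 (adjusted p = 0.0592; 3.49e-07 with the block).

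The pair of genes that both tables list had overlapping ranges in all 3 labelled groups. The trans-Golgi SNARE gene vamp4.L (gene15164) was at 18.4, 20.8, 23.9 and 27.5 CPM in Staufen-labelled libraries, 23.6, 21.9, 32.9 and 31.4 CPM in hnRNPab-labelled libraries and 14.4, 17.2, 22.0 and 21.6 CPM in IgG-labelled libraries. Within each replicate number hnRNPab was highest and IgG lowest. It rose 1.46-fold in hnRNPab-labelled over IgG-labelled libraries (adjusted p = 0.0391, edgeR; lost without hnRNPab 3, hnRNPab 4, IgG 1 or IgG 2 at 0.0813 to 0.115; 6.44e-08 with the block). With the block it also rose in Staufen-labelled over IgG-labelled libraries (log2 0.27, adjusted p = 0.00393, against 0.553 without) and fell in Staufen-labelled over hnRNPab-labelled libraries (log2 -0.27, 0.00159, against 0.298 without). The Munc18 gene stxbp2.L (gene15750) was at 88.9 to 97.5, 77.5 to 95.7 and 94.9 to 108 CPM in Staufen-labelled, hnRNPab-labelled and IgG-labelled libraries, and log2 fold changes were -0.10, -0.18 and 0.081 for Staufen over IgG, hnRNPab over IgG and Staufen over hnRNPab. The second of these passed only with the block (adjusted p = 0.00452, against 0.126 without).

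**Figure D4:**
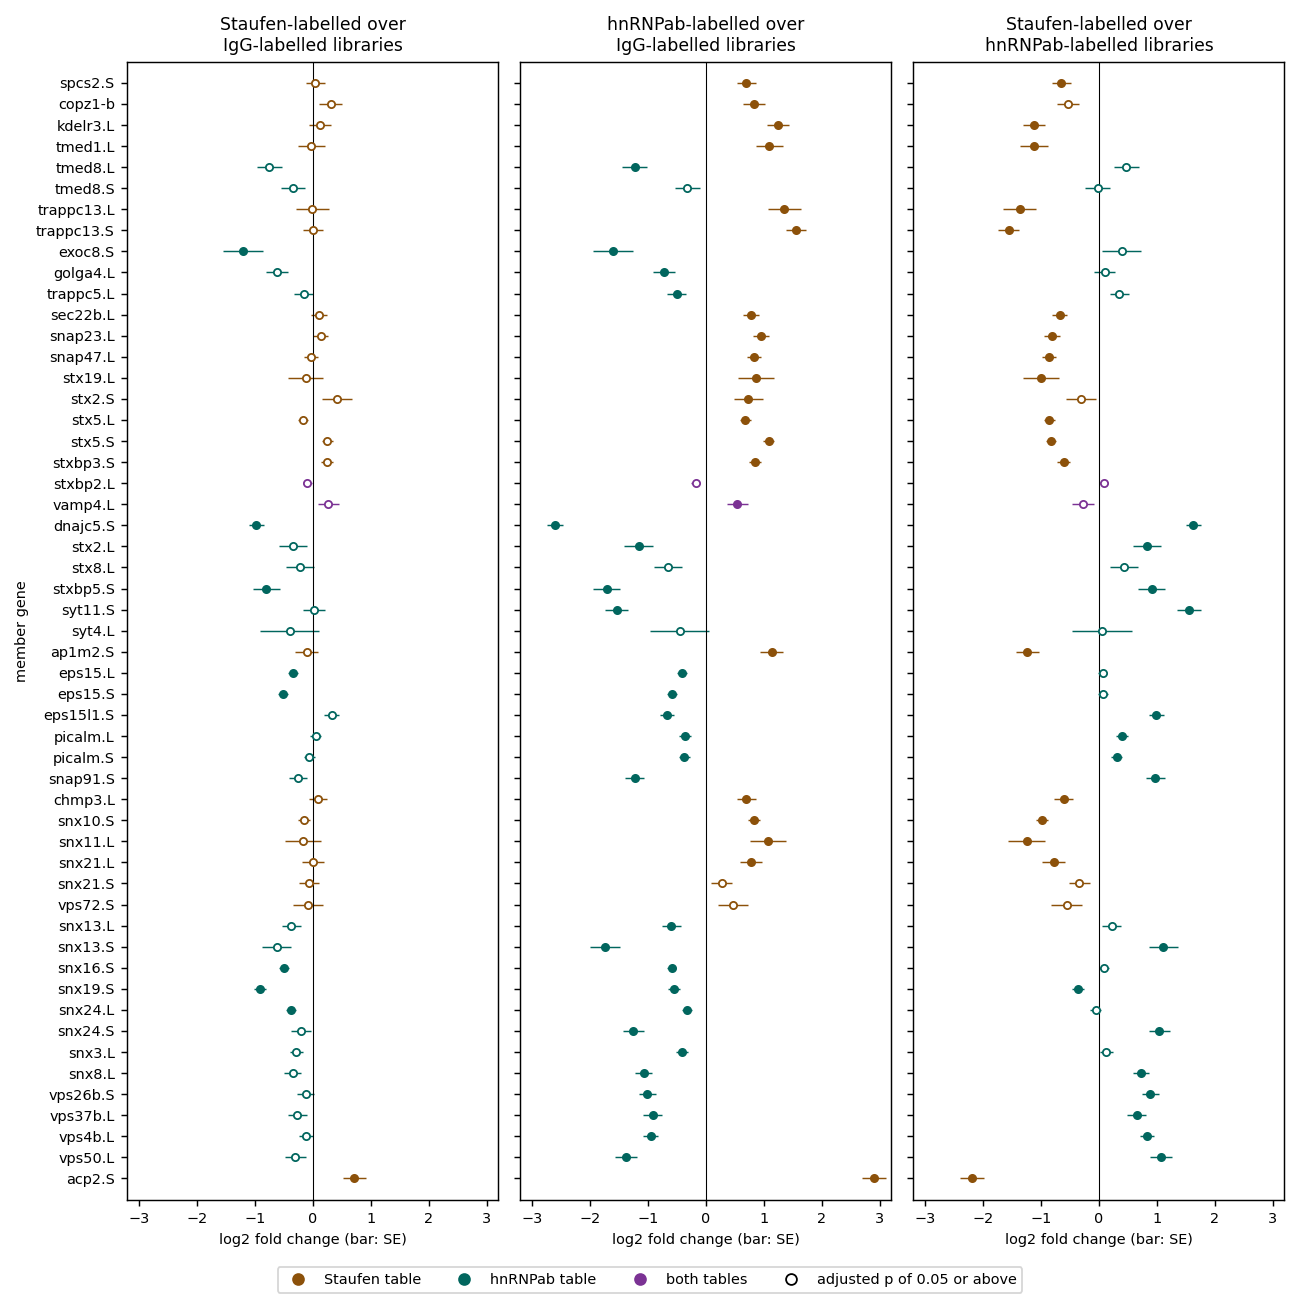
Log2 fold change of 53 members (rows, in role order) in the 3 comparisons of libraries as labelled, with bars for the SE; filled points had an edgeR adjusted p below 0.05 without the replicate block, and colour gives the authors' deposited table. In hnRNPab-labelled over IgG-labelled libraries all Staufen-table members (brown) lie above 0 and all hnRNPab-table members (green) below it, as do all other tested genes so listed. In Staufen-labelled over IgG-labelled libraries only 9 points are filled.

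Of 7 clathrin and adaptor genes, 1 rose and 6 fell in hnRNPab-labelled over IgG-labelled libraries. The 6 were listed for hnRNPab alone, where 82.9% of all genes so listed fell. The other was listed for Staufen alone, where 83% of all genes so listed rose. The one that rose was ap1m2.S (gene19463), which encodes a medium chain of the AP-1 adaptor of the trans-Golgi network. It was at 451, 299.8, 341 and 256 CPM in Staufen-labelled libraries, 1009, 637, 808 and 725 CPM in hnRNPab-labelled libraries and 460.5, 316, 374 and 299.7 CPM in IgG-labelled libraries. The hnRNPab-labelled range lay above the other 2, which overlapped (2.19-fold over IgG-labelled libraries; log2 1.13, SE 0.199, adjusted p = 0.00081, edgeR). In Staufen-labelled over hnRNPab-labelled libraries it fell (log2 -1.24, adjusted p = 0.000457).

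The endocytic adaptor genes of the hnRNPab table fell by different amounts. The clathrin assembly gene snap91.S, which encodes AP180, was at 15.9 to 19.6 CPM in hnRNPab-labelled and 31.6 to 53.0 CPM in IgG-labelled libraries (log2 -1.23, adjusted p = 8.36e-05, edgeR). Its ubiquitous relative picalm, which sorts SNAREs into clathrin pits, fell, with log2 -0.37 for picalm.S (adjusted p = 0.00944) and -0.35 for picalm.L (adjusted p = 0.0177, lost without hnRNPab 3, hnRNPab 4, IgG 2 or IgG 3 at 0.0501 to 0.0521 and without the filter at 0.0742; 4.47e-07 with the block). The picalm genes lay close in Staufen-labelled and IgG-labelled libraries, at 154 to 178 against 156 to 195 CPM for picalm.S and 156 to 187 against 152 to 177 CPM for picalm.L. In Staufen-labelled over hnRNPab-labelled libraries picalm.L rose (log2 0.40, adjusted p = 0.00963) and so did picalm.S (log2 0.30, 0.0269, lost without Staufen 2, Staufen 3, hnRNPab 1, hnRNPab 2 or hnRNPab 4 at 0.0518 to 0.083 and without the filter at 0.0994; 2.36e-05 with the block).

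The eps15 genes, for a scaffold of clathrin-coated pits, and their relative eps15l1 differed in where Staufen-labelled libraries lay. The eps15.S gene (gene2176) was at 94.1, 78.9, 85.0 and 80.9 CPM in Staufen-labelled libraries, 88.9, 83.4, 81.0 and 69.5 CPM in hnRNPab-labelled libraries and 119, 116, 124 and 125 CPM in IgG-labelled libraries. It fell in Staufen-labelled over IgG-labelled libraries (log2 -0.51, SE 0.0898, adjusted p = 0.00412, edgeR) and in hnRNPab-labelled over IgG-labelled libraries (log2 -0.58, SE 0.0899, adjusted p = 0.000305, edgeR). The Staufen-labelled and hnRNPab-labelled ranges overlapped. The .L copy fell likewise, by log2 -0.35 in Staufen-labelled libraries (adjusted p = 0.0204, lost without Staufen 2, Staufen 3, Staufen 4, IgG 2 or IgG 3 at 0.057 to 0.0717 and without the filter at 0.0896; 1.04e-06 with the block) and -0.41 in hnRNPab-labelled libraries (adjusted p = 0.00171). In contrast eps15l1.S (gene5169) was at 47.6, 61.0, 57.0 and 70.5 CPM in Staufen-labelled libraries, 29.0, 31.9, 29.2 and 28.7 CPM in hnRNPab-labelled libraries and 41.1, 54.5, 44.5 and 48.9 CPM in IgG-labelled libraries. Staufen was highest within each replicate number, and the gene rose 1.99-fold in Staufen-labelled over hnRNPab-labelled libraries (log2 0.99, SE 0.126, adjusted p = 7.48e-05, edgeR). Over IgG-labelled libraries the Staufen-labelled difference was log2 0.32 (adjusted p = 0.163; 0.000193 with the block).

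Of 18 endosomal sorting genes, 4 rose and 12 fell in hnRNPab-labelled over IgG-labelled libraries, and 6 and 12 with the replicate block. The 4 were listed for Staufen alone, where 83% of all genes so listed rose. The largest fall was that of snx13.S (gene1275), a sorting nexin with an RGS domain. It was at 100.3, 162, 171 and 162 CPM in Staufen-labelled libraries, 43.0, 79.4, 77.8 and 75.9 CPM in hnRNPab-labelled libraries and 141, 262, 232 and 284 CPM in IgG-labelled libraries. Replicate 1 was the lowest in each group, and IgG was highest and hnRNPab lowest within each replicate number. The gene fell in hnRNPab-labelled over IgG-labelled libraries (log2 -1.74, SE 0.257, adjusted p = 0.000227, edgeR) and rose 2.16-fold in Staufen-labelled over hnRNPab-labelled libraries (log2 1.11, SE 0.253, adjusted p = 0.00479, edgeR). In Staufen-labelled over IgG-labelled libraries it was at log2 -0.63 (adjusted p = 0.179; 7.38e-11 with the block).

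The 12 endosomal sorting genes that fell in hnRNPab-labelled over IgG-labelled libraries were the 12 listed for hnRNPab alone, and 82.9% of all genes so listed fell in this comparison. Among them the gene vps50.L (gene19006), for a subunit of an endosomal recycling tether, was at 55.6, 70.2, 78.1 and 82.4 CPM in Staufen-labelled libraries, 25.9, 35.4, 37.1 and 37.8 CPM in hnRNPab-labelled libraries and 65.1, 83.3, 92.7 and 113 CPM in IgG-labelled libraries (log2 -1.38, SE 0.183, adjusted p = 0.000101 for hnRNPab over IgG, edgeR). The hnRNPab-labelled values were below all others. Falls of log2 -1.01 for the retromer subunit gene vps26b.S, -0.95 for vps4b.L, the ATPase that disassembles ESCRT-III, and -0.92 for the ESCRT-I subunit gene vps37b.L passed in the same comparison (adjusted p 0.000116 to 0.000828). All 4 rose in Staufen-labelled over hnRNPab-labelled libraries (log2 0.65 to 1.07, adjusted p 0.000338 to 0.00802), and none passed in Staufen-labelled over IgG-labelled libraries (adjusted p 0.781, 0.83, 0.454 and 0.437 for vps4b.L, vps26b.S, vps37b.L and vps50.L). With the replicate block vps50.L (5.1e-05) and vps37b.L (0.000595) fell there. An ESCRT-III subunit gene, chmp3.L, was listed for Staufen alone, where 83% of all genes so listed rose. It rose 1.62-fold in hnRNPab-labelled over IgG-labelled libraries (adjusted p = 0.00443), a direction that goes with the listing.

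Sorting nexins, which bind phosphoinositides on endosomes through a PX domain, lay in both directions in hnRNPab-labelled over IgG-labelled libraries. These directions go with the listing. The gene snx19.S (gene44749) was at 14.7, 12.5, 12.9 and 12.2 CPM in Staufen-labelled libraries, 16.9, 15.2, 17.7 and 17.3 CPM in hnRNPab-labelled libraries and 23.9, 23.3, 27.4 and 24.2 CPM in IgG-labelled libraries. The 3 groups did not overlap, and here Staufen-labelled libraries were lowest. It fell in Staufen-labelled over IgG-labelled libraries (log2 -0.92, SE 0.102, adjusted p = 0.000321, edgeR) and was, among the 29 members listed for hnRNPab alone, the one called lower in Staufen-labelled over hnRNPab-labelled libraries, in the fits with and without the block (log2 -0.36, adjusted p = 0.0168, and 0.0512 without Staufen 4). Of all genes listed for hnRNPab alone 0.607% were lower there, and 3.71% with the block. The gene snx16.S, for an endosomal sorting nexin, was at 51.2 to 59.8, 48.9 to 54.1 and 72.9 to 84.6 CPM in Staufen-labelled, hnRNPab-labelled and IgG-labelled libraries. It fell in Staufen-labelled over IgG-labelled libraries (log2 -0.50, adjusted p = 0.00313, edgeR) and in hnRNPab-labelled over IgG-labelled libraries (log2 -0.59, adjusted p = 0.000164, edgeR). The gene snx8.L averaged 198 ± 25.6, 119.6 ± 15.2 and 252 ± 44.0 CPM in Staufen-labelled, hnRNPab-labelled and IgG-labelled libraries (SD, n = 4 each), and fell in hnRNPab over IgG (log2 -1.07, adjusted p = 0.000125). For snx3.L, a partner of retromer, the fall was log2 -0.42 (adjusted p = 0.00879).

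Sorting nexin genes of the Staufen table were highest in hnRNPab-labelled libraries. The gene snx11.L was at 20.6, 13.3, 25.7 and 13.7 CPM in Staufen-labelled libraries, 49.1, 28.4, 62.1 and 34.1 CPM in hnRNPab-labelled libraries and 23.9, 13, 29.4 and 16.5 CPM in IgG-labelled libraries. Replicates 1 and 3 were the high ones in every group, and the hnRNPab-labelled and IgG-labelled ranges overlapped although hnRNPab was higher in 4 of 4 replicate numbers. It rose 2.10-fold over IgG-labelled libraries (adjusted p = 0.02, edgeR; lost without hnRNPab 1, hnRNPab 3, IgG 2 or IgG 4 at 0.0509 to 0.0679; 3.07e-16 with the block) and fell in Staufen-labelled over hnRNPab-labelled libraries (log2 -1.24, adjusted p = 0.00943). The gene snx10.S rose 1.78-fold (adjusted p = 9.06e-05) and snx21.L 1.71-fold (adjusted p = 0.00757) over IgG-labelled libraries, and snx21.S was at log2 0.27 (adjusted p = 0.279; 0.00232 with the block). The name pattern also took vps72.S, which despite its name encodes a histone-binding chromatin protein in yeast and human. It was at 19.6 to 29.7 CPM in hnRNPab-labelled and 10.8 to 23.4 CPM in IgG-labelled libraries (log2 0.47, adjusted p = 0.202; 4.06e-06 with the block).

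The gene with the largest rise was acp2.S (gene20047), which encodes a lysosomal acid phosphatase. It was at 54.1, 39.2, 41.2 and 37.0 CPM in Staufen-labelled libraries, 267, 154, 190.2 and 170.4 CPM in hnRNPab-labelled libraries and 34.5, 24.3, 24.4 and 21.6 CPM in IgG-labelled libraries. The 3 groups did not overlap. Beside the 7.46-fold rise in hnRNPab-labelled over IgG-labelled libraries (log2 SE 0.208, adjusted p = 8.87e-07), it fell in Staufen-labelled over hnRNPab-labelled libraries (log2 -2.19, SE 0.202, adjusted p = 6.8e-06, edgeR). It was also the member called higher in Staufen-labelled over IgG-labelled libraries (1.64-fold; log2 0.71, SE 0.197, adjusted p = 0.047, edgeR). That call did not survive the omission of any 1 library, hnRNPab 1, hnRNPab 2 and IgG 1 excepted (adjusted p 0.0623 to 0.157). It also missed the threshold without the filter and in a fit on the 2 groups alone (0.0534 to 0.054), while the blocked fit gave 4.35e-11.

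Both homeologs were members for 9 symbols. In 8 of the 9 pairs both copies were in the same table of the authors, and stx2 was the exception. Over all 491 symbols with both copies listed, 52 pairs (10.6%) were in different tables, so that 1 of 9 (11.1%) was near that share. The .L share of the summed CPM of a pair was 66.1% to 68.6% for eps15 in Staufen-labelled libraries, 65.4% to 68.1% in hnRNPab-labelled libraries and 62.9% to 65.8% in IgG-labelled libraries, and for picalm 49.3% to 54.8%, 46.0% to 53.0% and 47.3% to 51.8% in the same groups. The Staufen-labelled and IgG-labelled shares did not overlap for eps15, and all 3 ranges overlapped for picalm. For stx2 the .L share was 75.9% to 85.7% in Staufen-labelled libraries, 58.5% to 74.5% in hnRNPab-labelled libraries and 83.3% to 89.9% in IgG-labelled libraries, and the last 2 did not overlap. The direction of that difference goes with the listing of its copies in different tables. The .L share of snx13 was 35.0% to 48.4%, 51.8% to 63.9% and 34.0% to 43.6% in the same groups and that of snx24 36.1% to 41.4%, 49.8% to 61.5% and 35.6% to 44.9%, so that hnRNPab-labelled libraries held relatively more of the .L copy. In both pairs the .S copy had the larger fall in hnRNPab-labelled over IgG-labelled libraries. For snx13 it was log2 -1.74 for .S and -0.60 for .L, and for snx24 -1.25 for .S and -0.33 for .L. The snx24.L gene also fell in Staufen-labelled over IgG-labelled libraries (log2 -0.38, adjusted p = 0.024), and both its calls were sensitive. The Staufen call was lost without Staufen 3, Staufen 4, IgG 2, IgG 3 or IgG 4 (0.0504 to 0.0718) and the hnRNPab call without IgG 4 (0.0535), and both without the filter or in a fit on the 2 groups alone (0.0789 to 0.115 and 0.0505 to 0.107). With the block both passed (adjusted p = 7.66e-05 and 0.000199). The .L share of stx5 was 31.6% to 34.2% in Staufen-labelled, 29.6% to 36.0% in hnRNPab-labelled and 38.7% to 41.9% in IgG-labelled libraries. For tmed8 it was 29.9% to 40.5%, 21.4% to 33.1% and 36.4% to 48.1% in the same groups. In stx5 and tmed8 the hnRNPab-labelled shares lay below all IgG-labelled ones. The ranges of hnRNPab-labelled and IgG-labelled shares overlapped for snx21 (53.2% to 60.2%, 56.7% to 68.1% and 45.6% to 62.2%) and for trappc13 (32.3% to 48.1%, 35.3% to 43.0% and 37.1% to 47.3%), given in the same order of groups. Where copies are nearly identical the counting could split reads wrongly between them, so these shares are uncertain, and no test was made of them or of differences between copies. How often shares do not overlap for other listed pairs was not computed. The number of such pairs here is therefore no result about the members.

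**Figure D5:**
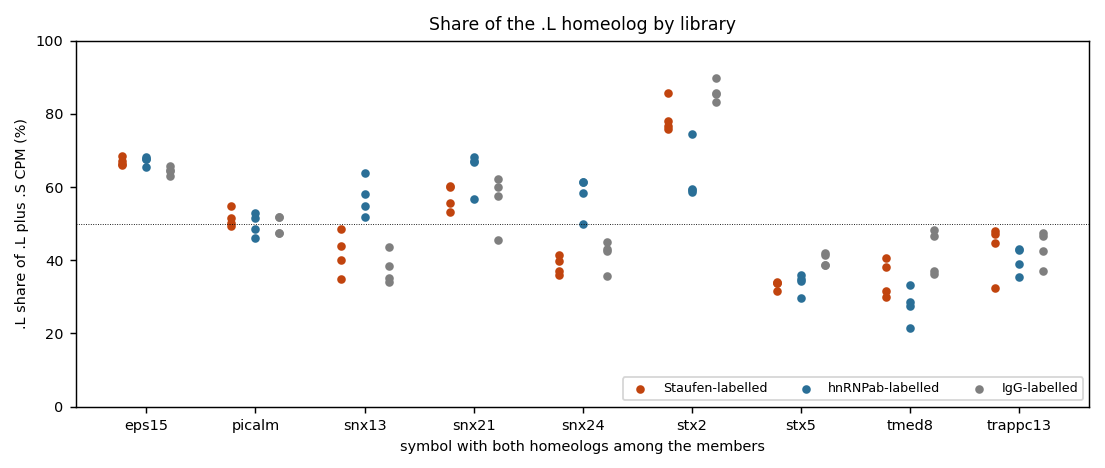
Share of the .L copy in the summed CPM of the .L and .S copies (%), for the 9 symbols with both copies among the members; each point is a library as labelled, in the order Staufen, hnRNPab and IgG within a symbol, and the dotted line marks equal levels. For snx13, snx24, stx2, stx5 and tmed8 the hnRNPab-labelled and IgG-labelled points do not overlap, whereas for eps15 and picalm the shares of all libraries lie within 62.9% to 68.6% and 46.0% to 54.8%. How often points do not overlap for other listed pairs was not computed.

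A list of 44 related traffic genes outside the name pattern (Rab and Arf GTPases and their regulators, COG, cathepsins and others) was counted by table. In hnRNPab-labelled over IgG-labelled libraries, 19 of the 21 listed for Staufen alone rose and 13 of the 17 listed for hnRNPab alone fell, where 83% and 82.9% of all genes so listed did. In all 43 were tested, of which 21 rose, 13 fell and 9 did not pass (24 and 17 with the replicate block). Of all tested genes 16.3% rose and 17.4% fell (31.3% and 33.3% with the block). The lysosomal genes of that list included the cathepsin genes ctsb.L (log2 1.94), ctsb.S (1.83), ctsv.L (1.13) and ctsv.S (1.71) and the channel gene mcoln1.L (1.86). All of these were listed for Staufen alone and were higher in hnRNPab-labelled libraries. Of those listed for hnRNPab alone, mcoln3.S (-1.40) was lower and atp6v0d1.L was at -0.89 (edgeR adjusted p = 0.0806, and 5.06e-16 with the block). These directions go with the listing. In Staufen-labelled over IgG-labelled libraries 2 of the 43 rose and 4 fell (12 and 19 with the block). Of all tested genes 4.45% rose and 3.33% fell there (19% and 20.5% with the block). The 2 that rose were listed for Staufen alone, where 8.14% of all genes so listed rose. Of the 4 that fell, 2 were listed for hnRNPab alone, where 21.1% of all genes so listed fell. The other 2 were in both tables, where 16.7% fell. In Staufen-labelled over hnRNPab-labelled libraries 8 rose and 22 fell (12 and 25 with the block), with 16.5% and 16.3% of all tested genes (33.1% and 31.5% with the block). Of the 22, 18 were listed for Staufen alone, where 80.1% of all genes so listed fell, and 4 in both tables, where 34.8% did. The 8 were listed for hnRNPab alone, where 55.6% of all genes so listed rose. The median log2 fold change of the 43 related genes was -0.0165, 0.305 and -0.373 for Staufen over IgG, hnRNPab over IgG and Staufen over hnRNPab. It was -0.125, -0.341 and 0.0155 for the 54 members and -0.0099, -0.0201 and 0.0157 for all tested genes. For hnRNPab over IgG it was 0.962 over all tested genes listed for Staufen alone and -0.947 over all listed for hnRNPab alone. The medians of the members and of the related genes therefore depend on how many were listed in each table. They are no result about either set.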

How the data were processed

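Counts per gene of 12 libraries were used as the authors deposited them, as raw whole-number counts without normalization. Per the submitters' processing notes, STAR 2.6.1b, HTSeq 0.9.1 and edgeR were used. Which build, annotation and strand setting was used is not given in the sources used here. In 2 further tables the authors deposited, per gene, log2 fold change and log2 CPM. Each gene also has a test score (F), p-value and adjusted p, per the file headers. Members came from these tables by name pattern, and 49 of the 54 names matched the reference gene table. The members and lists were chosen with earlier results of these data known.

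Reads outside genes (11.0% to 19.6% of singly aligned reads) and shared between genes (0.521% to 0.791%) were left out. Counts were fitted with edgeR 4.0.16 in R 4.3.3 (TMM, filterByExpr leaving 20803 genes, group as the only term over 12 libraries, quasi-likelihood F test, Benjamini-Hochberg adjustment at 0.05), and the fit was tested on simulated data. The simulated libraries were drawn independently, without a replicate effect, so that test does not cover the correlation of same-numbered libraries. A count of 0 allows 3 counts, or 0.136 to 0.212 CPM, for counting error only. CPM used TMM-scaled library sizes and were not divided by gene length, so levels are not compared between genes. Same-numbered libraries correlated in all 12 pairs (r 0.783 to 0.875), so the replicate number was also fitted as a block. Other alternatives were RLE size factors, DESeq2 1.42.0, no low count filter, fits on 2 groups, a fold threshold of 1.5 and leaving out each library.

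Genes named in full were the 6 largest rises and falls of each comparison among members past the threshold with at least 5 CPM, the 2 with the most CPM in each role group, members of both tables and both homeologs of a pair (37 members). Other members named, and those in the plot of 8 members, were chosen after their values were seen. Values of 1 member, which stays in the counts, are not reported here.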

Additional observations from a re-analysis of the deposited data

Results flagged for a closer look

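In 6 of 111 sets of 4 libraries, 1 library lay far from the other 3, measured by its gap to the nearest as a share of the range; chance gives about 1 in 20 sets. For copz1-b, hnRNPab 1 was at 55.1 CPM against 40.2 to 41.4 CPM (ratio 0.921). For snx13.S, hnRNPab 1 was at 43.0 CPM against 75.9 to 79.4 CPM (ratio 0.906), and Staufen 1 at 100.3 CPM against 162 to 171 CPM (ratio 0.877). For spcs2.S, IgG 1 was at 75.3 CPM against 50.7 to 54.9 CPM (ratio 0.831), and for trappc13.S at 44.8 CPM against 30.2 to 32.0 CPM (ratio 0.879). For eps15l1.S, hnRNPab 2 was at 31.9 CPM against 28.7 to 29.2 CPM (ratio 0.847). Of the 6, 5 were libraries numbered 1. The cause was not tested.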

How the results depend on the processing

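Counts in Staufen-labelled over IgG-labelled libraries depended most on the fit. Beside 1 member higher and 8 lower, the counts were 7 and 23 with the replicate block, 0 and 5 without the low count filter, 0 and 5 in a fit on the 2 groups alone, and 0 and 0 against a fold of 1.5. Leaving out 1 library gave 0 to 1 higher and 4 to 11 lower, with 4 lower without Staufen 3, Staufen 4, IgG 2 or IgG 3 and 5 without Staufen 2 or IgG 4. Against a fold of 1.5, 9 members were higher and 13 lower in hnRNPab-labelled over IgG-labelled libraries, and 6 and 8 in Staufen-labelled over hnRNPab-labelled libraries. This test asks for a larger difference. Leaving out 1 library gave 17 to 21 higher and 24 to 27 lower in the first, and 13 to 15 and 17 to 20 in the second. With the replicate block, in an alternative chosen after seeing the data, leaving out 1 library gave 7 to 8 higher and 20 to 26 lower in Staufen over IgG, 23 to 24 and 29 to 29 in hnRNPab over IgG, and 20 to 21 and 24 to 25 in Staufen over hnRNPab. No other count of members moved by over 1.5 times under RLE size factors, DESeq2, no filter or 2-group fits.

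Over all genes the block gave 3944 higher and 4259 lower for Staufen over IgG (925 and 693 without), 6505 and 6937 for hnRNPab over IgG (3388 and 3617), and 6880 and 6551 for Staufen over hnRNPab (3436 and 3401). For Staufen over IgG, DESeq2 gave 1233 lower and no filter 442. Against a fold of 1.5 the counts were 45 and 22, 1112 and 1077, and 960 and 985 for the 3 comparisons. No log2 fold change of the 37 named members with a call changed sign under the alternatives run. With the block, 24 of their 111 values newly passed and none was lost. The cause was not tested. Depth limited syt4.L, whose mean was 1.05 CPM.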
